A study of Mus musculus with 6 samples.

Results

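The AP-1 and EGR immediate early factors described here are 10 genes that were listed by name: Fos, Fosb, Jun, Junb, Jund, Egr1, Egr2, Egr3, Atf3 and Ier2. All 10 were found among the 55487 genes of the deposited table, and all 10 had a mean high enough to be tested, as did 18766 genes in total. RNA was sequenced from 6 libraries of Kit-positive cells taken from mouse bone marrow. The cells of the WT group (n = 3) had been transduced with a lentivirus that overexpressed wild type MLLT3. Those of the DM group (n = 3) had received a lentivirus for MLLT3 with the substitutions K63E and K67E in its place. After sorting, they grew for 8 days in methylcellulose. The medium held mouse Flt3L at 10 ng/mL, other growth factors at 20 ng/mL each (among them human EPO and mouse SCF, GM-CSF, IL-3, IL-6 and IL-11), gentamycin, and 4-hydroxytamoxifen at 200 nM to delete the endogenous Mllt3 gene. Both groups therefore carried the vector and the tamoxifen treatment, and neither is an untreated control. The strain, sex and age of the mice, the Cre line and the promoter of the vector were not given in the sources used here, nor was whether replicates came from separate mice, so p-values measure only the spread between these libraries. Values were regularized log (rlog) values, which are normalised log2 expression values drawn toward each gene's mean, and a change is the mean of DM minus the mean of WT on that scale.

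Immediate early genes are transcribed within minutes of a signal without new protein being made. Growth factors, cytokines and stress reach them through MAP kinases and through factors already on their promoters, such as SRF with its ELK partners and CREB. FOS proteins pair with JUN proteins through leucine zippers to form AP-1, which binds DNA. The EGR proteins are zinc finger factors that bind GC-rich sites and are held back by the NAB corepressors. In blood cells AP-1 and EGR factors are known for roles in monocyte and macrophage differentiation and in the response to cytokines. Many immediate early genes are also known for promoter-proximal pausing of RNA polymerase, which P-TEFb releases.

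The targeted gene Mllt3 ran from 12.44 to 12.87 in the WT libraries and from 11.99 to 12.44 in the DM libraries, and it fell by 0.48 in DM (limma adjusted p 0.0448). These values do not separate the vector's transcripts from those of the mouse gene. Kit was high throughout, from 14.29 to 14.90 over the 6 libraries, while the Kit-positive label describes the cells before the 8 days of culture. Markers of mast cells and basophils were high in the same libraries. The log2 of their summed level lay between 18.74 and 19.10 in WT and between 18.75 and 19.22 in DM. Which cells the Kit RNA came from was not tested. WT replicate 3 stood apart from the other WT libraries in the genes described here: it had the lowest of the 3 WT values for 9 of the 10 factors, and over all tested genes it had the lowest WT value for 47.5%. It also had the lowest of all 6 values for 9 factors, against 32.5% of tested genes. The changes of these 9 factors are given with and without this library. Correlations, SDs, differences within families and levels per gene length are given with it only. The median of WT replicate 3 over all tested genes was also the lowest of the 6 libraries, at 8.03 against 8.07 to 8.11. How often this library is lowest among genes with a mean of at least 10 was not counted. In RNA from mixed cells, a change in the share of a cell type and a change in RNA per cell cannot be told apart.

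Egr2 and Atf3 rose in DM, by 1.61-fold and 1.6-fold, and were the 2 clearest differences among the 10 factors. Fos (1.3-fold) and Junb (1.21-fold) also passed the test, close to its threshold. Jun, Egr1, Egr3, Fosb, Jund and Ier2 did not pass it. With limma and Benjamini-Hochberg adjustment over all tested genes, 4 of the 10 factors were called at an adjusted p under 0.05, all 4 higher in DM. Of all tested genes 13.9% were called, 9.2% higher and 4.71% lower. All 10 factors are highly expressed, with means of at least 10, and among the 5663 tested genes at that level 24.8% were called and 19.5% were called higher. No factor was called lower, and none had a lower mean with an unadjusted p under 0.05, while 5 had a higher mean with one. The median change of the 10 factors was 0.23 on the log2 scale, beside 0.01 for all tested genes and 0.11 for those with a mean of at least 10. With WT replicate 3 left out it was 0.12, beside 0.07 for those highly expressed genes. The number called dropped to 2 when WT replicate 3, DM replicate 2 or DM replicate 3 was left out, so the count depends on single libraries. In 6 of the 10 factors the groups did not overlap (5 higher in DM and 1 lower), against 35.8% of all tested genes. That share was not computed for genes with a mean of at least 10. Egr2 and Atf3 kept their calls in all 12 alternatives run.

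**Figure D1:**
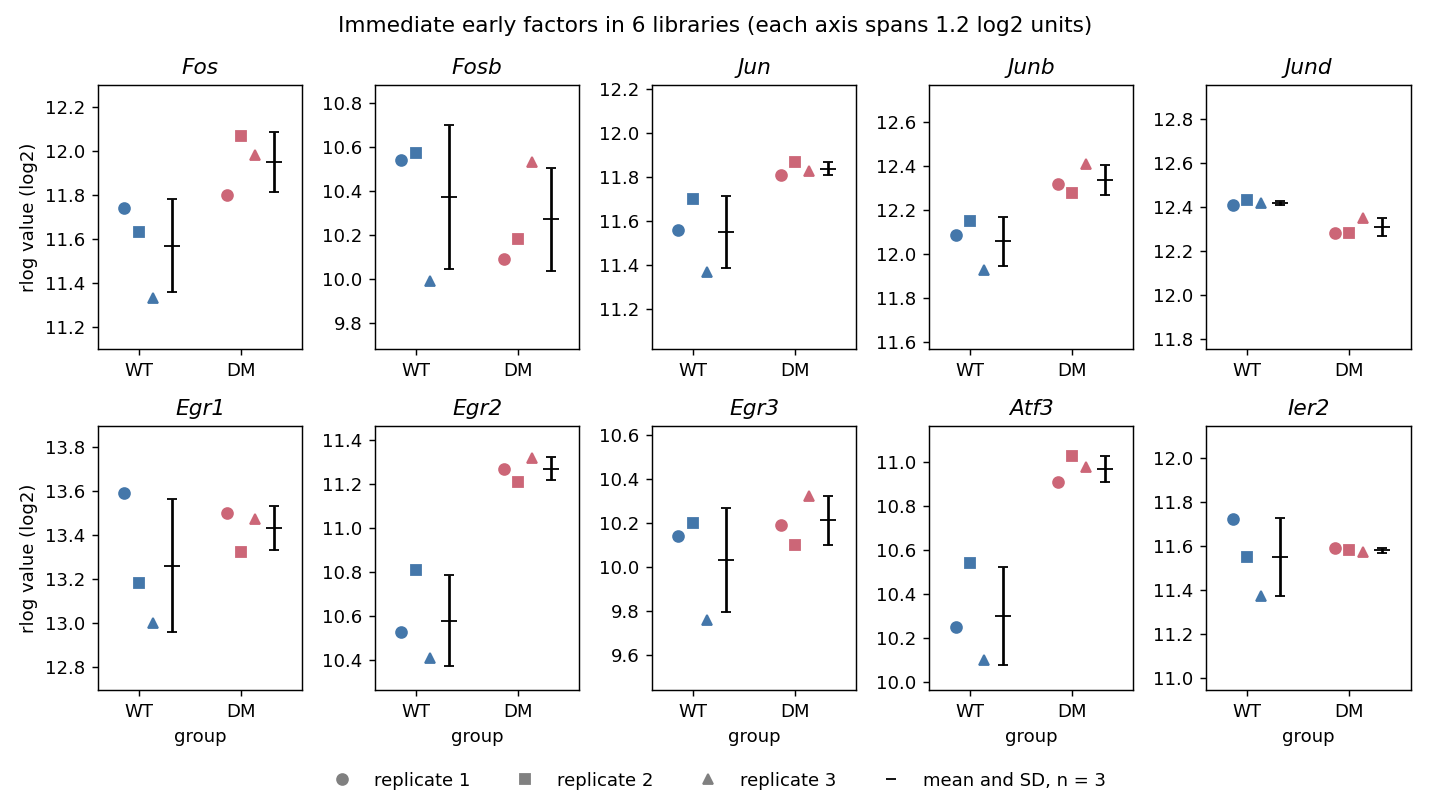
Rlog values (log2) of the 10 factors in each library, by group, with the mean and SD (n = 3) beside the points; each vertical axis spans 1.2 log2 units. The DM libraries lie above all WT libraries for Fos, Jun, Junb, Egr2 and Atf3 and below them for Jund, and WT replicate 3 (triangle) is the lowest point in every panel but that of Jund.

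Promoter sequences were available for 7 of the 10 factors (Fos, Fosb, Jun, Junb, Jund, Egr2 and Atf3) from RefSeq on GRCm38.p6, as windows of 300 bases that run from 250 bases before the transcription start to 50 after it. Of these, the windows of the 4 factors that rose in DM are shown, with that of Fosb beside them as the relative of Fos that was not called. Capitals mark matches to motifs searched on both strands: the CRE half-site TGACGT, the site of CREB and ATF proteins, the AP-1 site TGACTCA, the variant site TGACATCA, the EGR sites GCGTGGGCG and GCGGGGGCG, the TATA box TATAAA, and the CArG box bound by SRF. The full CRE TGACGTCA, which contains the half-site, was searched too.
Egr2, chr10:67537619-67537918, plus strand: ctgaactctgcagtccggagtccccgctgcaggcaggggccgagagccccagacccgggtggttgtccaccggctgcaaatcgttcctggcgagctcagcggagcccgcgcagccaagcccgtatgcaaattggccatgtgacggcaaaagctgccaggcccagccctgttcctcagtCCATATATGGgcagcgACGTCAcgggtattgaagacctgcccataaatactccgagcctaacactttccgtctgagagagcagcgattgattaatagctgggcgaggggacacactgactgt
Atf3, chr1:191183284-191183583, minus strand: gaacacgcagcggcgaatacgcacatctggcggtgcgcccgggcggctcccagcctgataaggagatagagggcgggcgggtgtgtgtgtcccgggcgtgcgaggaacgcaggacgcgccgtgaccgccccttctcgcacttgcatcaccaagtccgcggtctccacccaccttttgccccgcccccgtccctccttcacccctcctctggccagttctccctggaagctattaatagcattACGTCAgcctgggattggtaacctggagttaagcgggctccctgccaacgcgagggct
Fos, chr12:85473640-85473939, plus strand: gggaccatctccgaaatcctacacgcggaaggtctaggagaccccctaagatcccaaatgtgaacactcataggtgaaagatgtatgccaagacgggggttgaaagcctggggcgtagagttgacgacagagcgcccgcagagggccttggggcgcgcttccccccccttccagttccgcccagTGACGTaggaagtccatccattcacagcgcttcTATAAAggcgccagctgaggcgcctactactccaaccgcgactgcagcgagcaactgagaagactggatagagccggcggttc
Junb, chr8:84978699-84978998, minus strand: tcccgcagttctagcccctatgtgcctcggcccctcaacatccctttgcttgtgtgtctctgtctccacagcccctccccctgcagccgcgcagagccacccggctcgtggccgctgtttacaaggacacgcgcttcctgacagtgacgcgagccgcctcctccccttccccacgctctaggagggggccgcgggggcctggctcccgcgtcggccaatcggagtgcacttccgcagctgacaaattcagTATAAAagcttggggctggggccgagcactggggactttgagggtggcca
Fosb, chr7:19309996-19310295, minus strand: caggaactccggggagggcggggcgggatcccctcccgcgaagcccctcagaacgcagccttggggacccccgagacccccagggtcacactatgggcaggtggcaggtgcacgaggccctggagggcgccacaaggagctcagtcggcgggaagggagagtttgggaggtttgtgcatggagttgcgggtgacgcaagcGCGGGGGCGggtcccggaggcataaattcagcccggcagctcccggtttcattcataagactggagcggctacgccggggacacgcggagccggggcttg

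The CRE half-site as searched, TGACGT, was found in the windows of Fos, Egr2 and Atf3, and it occurs in 7.51% of all 32851 windows of this length. It begins 66 bases upstream of the start in Fos, and on the opposite strand 56 bases upstream in Egr2 and 8 bases upstream in Atf3. The shorter form TGACG was not searched. It can be read in the windows of Junb and Fosb as well, so the shorter form does not set Fosb apart from the factors that rose. The share of all windows that hold the shorter form was not counted. The Egr2 window also held a CArG box 72 bases upstream, a motif found in 1.63% of windows. Sites more than 250 bases upstream lie outside the windows and were not searched, in Fos as in the others. Egr1, Egr3 and Ier2 had no window. Fos had a TATA box 33 bases upstream. In Junb the TATA box begins at the RefSeq start, which lies 30 bases upstream of the start that GENCODE M21 gives, and 13.6% of windows hold this motif. Fosb had an EGR site 50 bases upstream (3.47% of windows), and Jun, whose window is not shown, had the variant site TGACATCA 45 bases upstream (3.62%). No AP-1 site TGACTCA (5.2% of windows) or full CRE (1.79%) was found in the 7 windows, and the window of Jund, whose RefSeq start lies 1210 bases from the GENCODE start, held none of the motifs. Egr2 has 5 RefSeq starts, of which the one that matches its longest GENCODE transcript is shown. The motifs were chosen with the sequences in view, and a match describes letters only.

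The FOS proteins supply the partner of JUN in AP-1, and FOS itself needs that partner to bind DNA. Fos (ENSMUSG00000021250.13; chromosome 12, 85473890 to 85477273, plus strand) stood at 11.74, 11.63 and 11.33 (rlog) in the WT libraries, in the order of their replicate numbers as everywhere below, and at 11.80, 12.07 and 11.98 in the DM libraries. All DM values exceeded all WT values, by a small margin between DM replicate 1 and WT replicate 1. The mean went from 11.57 ± 0.212 (SD, n = 3) to 11.95 ± 0.136, a change of 0.38 (SE 0.111, 95% interval 0.13 to 0.63, limma adjusted p 0.0484). The call was lost in 8 of 12 alternatives, over which the adjusted p ran from 0.029 to 0.166. Leaving out WT replicate 3 gave 0.26 (adjusted p 0.0936), and leaving out DM replicate 2 gave 0.32 (adjusted p 0.166). After quantile normalization it was 0.28 (adjusted p 0.0819).

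Fosb (ENSMUSG00000003545.3; chromosome 7, 19302696 to 19310051, minus strand), whose product is the close relative of FOS, stood at 10.54, 10.57 and 9.99 in the WT libraries and at 10.09, 10.18 and 10.53 in the DM libraries. The groups overlapped from end to end, with 1 library of each group set apart from the other 2. The means were 10.37 ± 0.327 (SD, n = 3) and 10.27 ± 0.234, a difference of -0.1 (95% interval -0.46 to 0.26, limma adjusted p 0.706). Without WT replicate 3 the difference was -0.29 (adjusted p 0.152). Within each library, Fos minus Fosb was 1.19, 1.07 and 1.34 for WT and 1.72, 1.88 and 1.45 for DM, a balance that lay further toward Fos in DM by 0.48, with groups that did not overlap. For this and the 6 other pairs within a family, an exact permutation test over the 6 libraries was used (two-sided, smallest possible p 0.1). It gave 0.1 here, and 0.14 after Benjamini-Hochberg adjustment over the 7 pairs, so no pair could reach the threshold. Pairs with a gene in common are not independent, and the share of other gene pairs with groups apart was not computed.

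The JUN proteins can form AP-1 with a FOS partner or with each other. Jun is the strong activator of the family, Junb often opposes it, and Jund is the member known for steady expression. Junb (ENSMUSG00000052837.7; chromosome 8, 84974484 to 84978718, minus strand) stood at 12.09, 12.15 and 11.93 in the WT libraries and at 12.32, 12.28 and 12.41 in the DM libraries. Every DM library was above every WT library. The mean went from 12.06 ± 0.111 (SD, n = 3) to 12.34 ± 0.0681, a change of 0.28 (SE 0.0787, 95% interval 0.10 to 0.46, limma adjusted p 0.0421). The call was lost in 7 of 12 alternatives (adjusted p from 0.0243 to 0.158 over the 12). The change was 0.22 (adjusted p 0.0927) with WT replicate 3 left out and 0.16 (adjusted p 0.111) after quantile normalization. The annotation places Prdx2 on the opposite strand over part of Junb. Prdx2 changed by 0.28 as well (SE 0.0779, adjusted p 0.0419). Since the use of strand in the counting was not stated, reads from the part these genes share cannot be told apart.

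Jun (ENSMUSG00000052684.4; chromosome 4, 95049034 to 95052222, minus strand) stood at 11.56, 11.70 and 11.37 in the WT libraries and at 11.81, 11.87 and 11.83 in the DM libraries. The groups did not overlap, and the DM libraries were within 0.06 of each other. The change was 0.29 (SE 0.0866, 95% interval 0.10 to 0.48), with a limma adjusted p of 0.0525, just past the threshold on the side of no call. It was called in 5 of 12 alternatives, among them centring each library on its median (0.26, adjusted p 0.0423), and was 0.20 (adjusted p 0.106) without WT replicate 3. Its antisense gene Junos, which overlaps it on the plus strand, had a change of 0.38 (SE 0.12, adjusted p 0.0669). Reads from the part this pair shares cannot be told apart either.

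Jund (ENSMUSG00000071076.6; chromosome 8, 70698949 to 70700616, plus strand) was the steadiest of the 10 factors within WT, at 12.41, 12.43 and 12.42 (SD 0.00962, n = 3). In DM it was 12.28, 12.28 and 12.35, below every WT library. Groups that do not overlap with DM lower were found for 14.3% of tested genes, and with DM higher for 21.5%. The change of Jund was -0.12 (SE 0.0647, 95% interval -0.26 to 0.03, limma adjusted p 0.262), which did not pass the test, although after quantile normalization it was -0.24 with an adjusted p of 0.0249. Within libraries, Junb minus Jund averaged -0.36 ± 0.107 (SD, n = 3) in WT and 0.03 ± 0.0338 in DM. Jun minus Jund averaged -0.88 ± 0.159 and -0.47 ± 0.0522. Both balances differed between groups by about the same amount, 0.40 and 0.41, with no overlap of groups (exact permutation p 0.1 each, 0.14 adjusted over the 7 pairs). Jun minus Junb was -0.51 in WT and -0.50 in DM, a difference of 0.01 (exact permutation p 0.9).

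**Figure D2:**
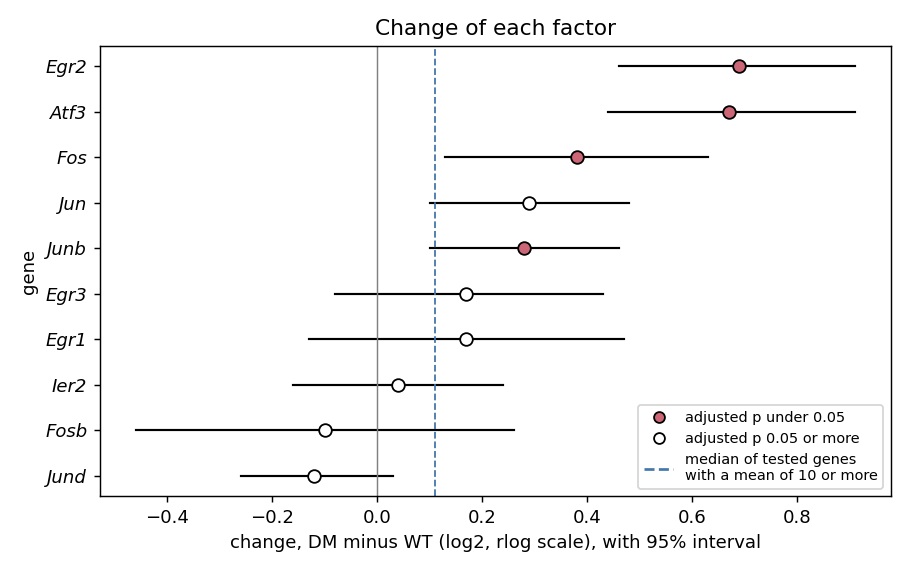
Change of each factor in DM against WT (log2, rlog scale) with its 95% interval from limma; filled points passed an adjusted p of 0.05, and the dashed line is the median change, 0.11, of tested genes with a mean of at least 10. Egr2 and Atf3 lie apart at 0.69 and 0.67, and the intervals of Egr1, Egr3, Ier2, Fosb and Jund include 0.

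The EGR proteins share 3 zinc fingers that read the same GC-rich site. Egr1 is the widely induced member, and Egr2 and Egr3 are known from nerve and immune cells, Egr2 also from macrophages. Egr2 (ENSMUSG00000037868.15; chromosome 10, 67535475 to 67542188, plus strand) stood at 10.53, 10.81 and 10.41 in the WT libraries and at 11.27, 11.21 and 11.32 in the DM libraries. The lowest DM library was well above the highest WT library. The mean went from 10.58 ± 0.208 (SD, n = 3) to 11.27 ± 0.0514, a change of 0.69 (SE 0.0989, 95% interval 0.46 to 0.91, limma adjusted p 0.00377). The change lay between 0.58 and 0.80 over the 12 alternatives, with adjusted p from 0.000797 to 0.0197, and it was 0.60 (adjusted p 0.00428) without WT replicate 3.

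Egr1 (ENSMUSG00000038418.7; chromosome 18, 34859823 to 34864984, plus strand) stood at 13.59, 13.18 and 13.00 in the WT libraries and at 13.50, 13.32 and 13.47 in the DM libraries. The DM libraries lay inside the range of the WT libraries, which were the more scattered group. The change was 0.17 (SE 0.135, 95% interval -0.13 to 0.47, limma adjusted p 0.419). It was 0.34 when WT replicate 1 was left out, 0.04 when WT replicate 3 was, and 0.01 after quantile normalization, so its size rested on single WT libraries and on the scaling. Egr3 (ENSMUSG00000033730.4; chromosome 14, 70077203 to 70082614, plus strand) stood at 10.14, 10.20 and 9.76 in the WT libraries and at 10.19, 10.10 and 10.32 in the DM libraries. The groups overlapped, and the change of 0.17 (95% interval -0.08 to 0.43, adjusted p 0.334) was 0.04 without WT replicate 3.

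Within libraries, Egr1 minus Egr2 was 3.06, 2.37 and 2.59 for WT and 2.23, 2.10 and 2.15 for DM. The gap between these genes was thus narrower in every DM library, by 0.51 on average (exact permutation p 0.1, 0.14 adjusted over the 7 pairs). Egr2 minus Egr3 differed by 0.51 as well, at 0.55 ± 0.137 (SD, n = 3) in WT and 1.06 ± 0.0611 in DM, with groups that did not overlap and the same p. Egr1 minus Egr3 had a mean of 3.22 in both groups. The differences of Egr2 from both relatives thus lie outside the range of the other group, in a design too small for an exact test to call them.

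**Figure D3:**
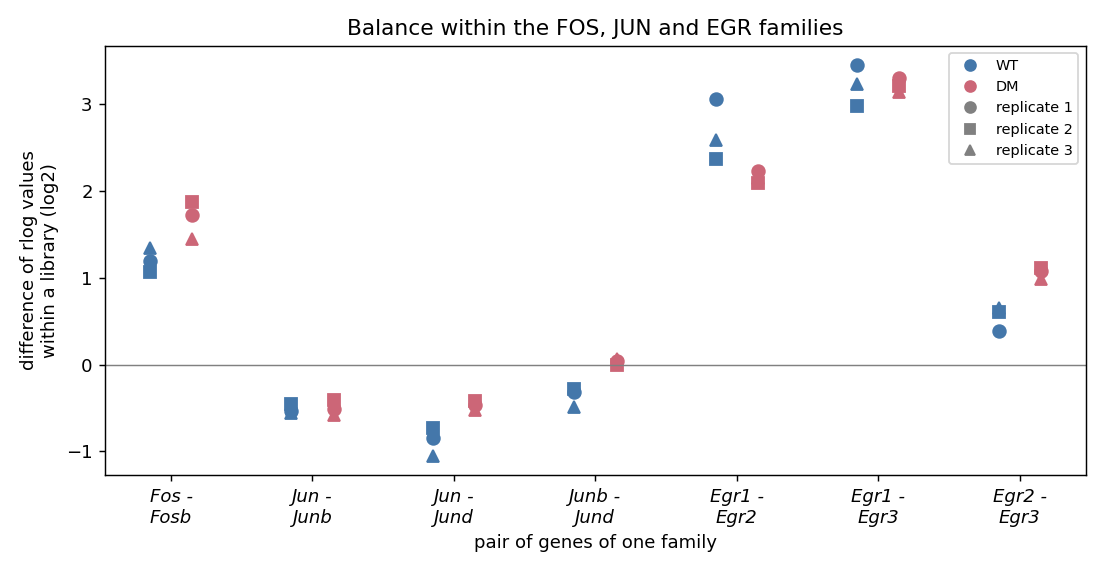
Difference of rlog values (log2) between genes of one family within each library, for the 7 pairs, with WT in blue and DM in red; each point is 1 library. The groups are apart for Fos minus Fosb, Jun minus Jund, Junb minus Jund, Egr1 minus Egr2 and Egr2 minus Egr3. They overlap for Jun minus Junb and Egr1 minus Egr3. Pairs with a gene in common are not independent, and the share of other gene pairs with groups apart was not computed. Among single tested genes it is 35.8%. The height of a pair also holds the lengths of its genes, so only the shift between groups is read.

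Atf3 (ENSMUSG00000026628.13; chromosome 1, 191170296 to 191218039, minus strand) encodes a stress-induced factor of the ATF family, which can pair with JUN proteins and often represses. It stood at 10.25, 10.54 and 10.10 in the WT libraries and at 10.91, 11.03 and 10.98 in the DM libraries. All DM libraries were above all WT libraries and close to one another. The mean went from 10.30 ± 0.223 (SD, n = 3) to 10.97 ± 0.0599, a change of 0.67 (SE 0.104, 95% interval 0.44 to 0.91, limma adjusted p 0.00484). The change was 0.58 (adjusted p 0.00572) without WT replicate 3 and ran from 0.58 to 0.80 over the 12 alternatives, with adjusted p from 0.000823 to 0.0224. Ier2 (ENSMUSG00000053560.5; chromosome 8, 84661331 to 84662852, minus strand), a small nuclear protein without a classical DNA-binding domain, stood at 11.72, 11.55 and 11.37 in the WT libraries and at 11.59, 11.58 and 11.57 in the DM libraries. The DM libraries fell within 0.02 of each other in the middle of the WT range. Its change was 0.04 (95% interval -0.16 to 0.24, adjusted p 0.816), and it was -0.05 without WT replicate 3 and -0.07 after quantile normalization, so no direction can be given.

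Across the 6 libraries Egr2 and Atf3 had nearly the same profile (Pearson r 0.99), and Jun and Junb were close to both, with r from 0.94 to 0.97. Egr1 and Ier2 formed a second pair of like profiles (r 0.90), which had little in common with Egr2 (r 0.44 and 0.26). Fosb was near neither Egr2 (r 0.03) nor Atf3 (r 0.04), and Jund ran against Atf3 (r -0.83). These values describe 6 libraries that share the difference between groups and the low level of WT replicate 3. The SD was larger in WT than in DM for 9 of the 10 factors, the exception being Jund, and for 63.9% of tested genes. The median SD of the 10 factors was 0.21 in WT and 0.064 in DM, beside 0.10 and 0.0726 for tested genes with a mean of at least 10. The DM libraries were therefore about as alike in these factors as in other genes of that level, and the WT libraries were less alike.

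The mean profile of the 10 factors, each set to its own mean, stood at -0.03, -0.02 and -0.32 in the WT libraries and at 0.09, 0.10 and 0.18 in the DM libraries. The tested genes whose profiles were most like it, among 11967 with a symbol and a mean of at least 6, were Sra1 (r 0.996), Stk35 (0.995), Bloc1s2 (0.992), Nbr1 (0.991) and Zfp747 (0.988). Their own changes were small, from 0.10 for Stk35 and Zfp747 to 0.16 for Sra1 and Nbr1, and none was called. With 6 libraries such likeness is common: 798 of these genes had r above 0.9.

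Levels were compared between genes after removing the log2 of the merged exon length in kilobases, from GENCODE M21 on GRCm38. On this per-length scale the order in WT was Jund (11.68), Egr1 (11.09), Ier2 (10.94), Junb (10.85), Fos (10.33), Jun (9.87), Atf3 (9.19), Egr2 (8.82), Egr3 (7.89) and Fosb (7.72). The ranges over the 3 WT libraries overlapped between Egr1 and Ier2, Ier2 and Junb, Atf3 and Egr2, and Egr3 and Fosb, so these neighbours are not ordered. In DM the order was the same except that Junb (11.13) came before Ier2 (10.98). There Atf3 (9.86) and Egr2 (9.50) no longer overlapped, and Egr1 (11.26) and Junb did. Jund was the highest of the 10 in both groups, above the range of its neighbour, and Fosb lay below the range of Egr3 in DM only. Of the 10 factors, 5 span at most 5000 bases, as do 10.8% of tested protein-coding genes, and their median span was 4698 bases, beside 24756 for those genes. Atf3 is the exception by its annotated span of 47744 bases, more than that median of all tested coding genes. Its 1 RefSeq start, at 191183333, lies inside this span, 7 bases from the start of its longest coding GENCODE transcript. The annotated span thus includes sequence upstream of the promoter window shown, and the transcript from that start is shorter than the span. Junb, Jund and Ier2 all lie on chromosome 8.

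Of 31 other immediate early genes tested, 12 rose and none was called lower (1 had a lower mean with an unadjusted p under 0.05), with a median change of 0.21. Counts in this and the following lists stand beside all tested genes, of which 9.2% were called higher and 4.71% lower. Among tested genes with a mean of at least 10 the shares were 19.5% and 5.24%. Sgk1, a kinase of ion transport and survival, stood at 11.84, 12.35 and 11.58 in the WT libraries and at 12.76, 13.04 and 12.76 in the DM libraries, a rise of 0.93 (SE 0.169, limma adjusted p 0.0082). Klf4, a zinc finger factor of monocytes, rose by 0.78 (SE 0.156, adjusted p 0.0114), and Plk2, a stress-induced kinase, by 0.67 (SE 0.0891, adjusted p 0.0027). These 3 kept their calls in all 12 alternatives. The nuclear receptors Nr4a1 and Nr4a3, classical immediate early genes, had changes of 0.07 and 0.05, and the growth factor response gene Myc had one of -0.08, none of them called. Leaving out WT replicate 1 gave 5 called genes, leaving out DM replicate 2 gave 4, leaving out DM replicate 3 gave 6 and quantile normalization gave 5, all higher in DM. Leaving out WT replicate 3 gave 7 higher and 1 lower.

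Among textbook targets of AP-1 and EGR factors, 12 of 23 tested genes rose and 1 fell, with a median change of 0.41. Among tested genes with a mean of at least 10, 19.5% were called higher, with a median of 0.11. The monocyte and macrophage markers described below had a median change of 0.63. The list of targets was chosen with earlier results of these data known. Whether its changes follow from AP-1 and EGR factors was not tested. Spp1, which encodes osteopontin, rose by 0.95 (SE 0.199, limma adjusted p 0.0137), and Mt2, a metallothionein, rose by 0.86 (SE 0.144, adjusted p 0.00651). Spp1 lost its call when WT replicate 1 or DM replicate 2 was left out. The 1 gene that fell was Vegfa, the endothelial growth factor, at 9.88, 9.78 and 9.44 in the WT libraries and at 8.46, 8.39 and 8.61 in the DM libraries, a difference of -1.22 (SE 0.111, adjusted p 0.000331). Over the whole list, leaving out WT replicate 1 gave 6 called genes, leaving out DM replicate 2 gave 7 and leaving out DM replicate 3 gave 8, of which 1 each was lower in DM. Leaving out WT replicate 3 gave 10 higher and 1 lower.

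Of the 13 other AP-1 and related leucine zipper factors, 3 rose and 1 fell, with a median change of 0.15. Maff, a small MAF protein, rose by 0.42 (SE 0.0767, limma adjusted p 0.00829) and Fosl2, a FOS relative, by 0.34 (SE 0.087, adjusted p 0.0282), a call that was lost in 6 of 12 alternatives. Jdp2, a repressor that pairs with JUN and is named here after its value was seen, fell by 0.31 (adjusted p 0.0292) and lost its call in 5 of them. Fosl1, the other FOS relative, had a change of 0.07 (adjusted p 0.521). The number called was 2 when WT replicate 1, DM replicate 2 or the filter on the mean was left out, both higher in DM. Without WT replicate 3 it was 4, all higher in DM. Of the 3 tested EGR relatives and corepressors, Nab2, an EGR target that represses EGR proteins, rose by 0.34 (SE 0.0902, adjusted p 0.0345). It lost the call in 5 of 12 alternatives, 4 of which leave out a library (WT replicate 1 or 3, DM replicate 2 or 3).

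Upstream of these genes, 3 of 11 tested SRF and CREB side factors rose, with a median change of 0.07. These were the SRF partner Elk3 (0.42, SE 0.0742, limma adjusted p 0.00773), the SRF coactivator Mrtfb (0.39, SE 0.0978, adjusted p 0.0267) and Elk1 (0.24, SE 0.0691, adjusted p 0.0446), and the number was 1 when any of WT replicates 1 and 3 and DM replicates 2 and 3 was left out. Srf itself was not called (-0.12, adjusted p 0.247), and neither was Creb1 (-0.09, adjusted p 0.416), though after quantile normalization both were called lower (-0.21, adjusted p 0.0229, and -0.19, adjusted p 0.0242). Of 22 MAP kinase cascade genes 3 rose, with a median change of 0.14: the RSK kinases Rps6ka2 (0.90, SE 0.153, adjusted p 0.00689) and Rps6ka3 (0.42, SE 0.0863, adjusted p 0.0127), and Nras (0.31, SE 0.0799, adjusted p 0.0319). The number that rose was 1 when WT replicate 1 or DM replicate 2 was left out, 2 when WT replicate 3 was and 5 when WT replicate 2 was. After quantile normalization 3 rose and 2 fell. The kinase Mapk3 was not called (0.30, adjusted p 0.0712). Beside the counts of both upstream lists, 9.2% of all tested genes were called higher. Among those with a mean of at least 10 the share was 19.5%, with a median change of 0.11.

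**Figure D4:**
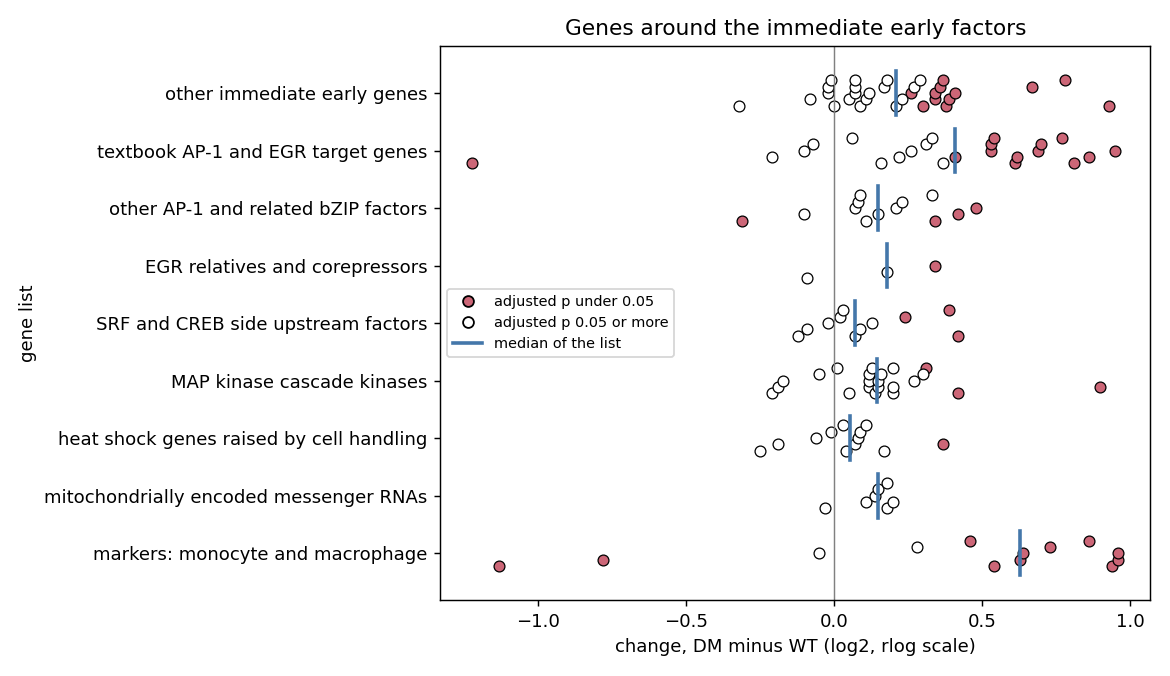
Change in DM against WT (log2, rlog scale) of each tested gene in 9 lists around the factors; each point is a gene, filled where the adjusted p was under 0.05, the bar is the median of the list, and points are spread vertically for sight only. Targets of AP-1 and EGR and monocyte and macrophage markers lie furthest to the right (medians 0.41 and 0.63), and heat shock genes lie near 0 (median 0.06).

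Markers of other cell types and signs of handling were read beside these results. Of 13 tested monocyte and macrophage markers, 9 rose and 2 fell, with a median change of 0.63. Ctss and Gpnmb rose by 0.96 each and Csf1r by 0.73, while Ly6c2, a marker of young monocytes, fell by 1.13. The log2 of the summed level of all 14 markers of this list in the table lay between 18.32 and 19.00 in WT and between 19.29 and 19.66 in DM, and C1qa, with means of 2.54 and 2.47, was below the filter of a mean of 3. All 12 neutrophil markers fell, with a median of -1.64, and their summed level went from between 18.46 and 18.90 to between 16.84 and 17.75. Of the other marker lists, 2 of 8 stem and progenitor markers rose and 1 fell, 2 of 7 megakaryocyte markers rose, and 1 of 4 tested lymphoid markers rose and 2 fell. Lower calls were made for 3 of 6 eosinophil markers, 1 of 8 mast cell and basophil markers and 1 of 6 fibroblast and endothelial markers, and none for 8 erythroid markers, of which none had an unadjusted p under 0.05 in limma either. The T cell marker Cd3e averaged 2.75 over the WT libraries and 2.68 over the DM libraries, below the filter. The part of this shift in cell markers in the changes of Egr2, Atf3, Fos and Junb was not tested.

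Heat shock genes, which rise together with immediate early genes when cells are handled or warmed, were mostly not called. Of 12 tested, 1 rose (Bag3, a cochaperone, 0.37, SE 0.0726, limma adjusted p 0.0101), with a median change of 0.06. The inducible Hspa1a and Hspa1b had changes of 0.03 and 0.04. Leaving out DM replicate 2 gave 0 called genes, leaving out WT replicate 3 gave 1 higher and 1 lower, and quantile normalization gave 1 higher and 3 lower. Of 13 messenger RNAs of mitochondrial origin, 7 were tested, none was called, and none had an unadjusted p under 0.05 in limma. The median change of these 7 was 0.15. Those not tested, among them mt-Co2, mt-Co3 and mt-Atp6, had means below the filter of 3. By contrast, mt-Co1 averaged 17.93 in WT and 18.12 in DM. The reason for such low values was not tested, so the list is incomplete as a sign of handling.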

How the data were processed

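Per the submitters' processing notes, cutadapt 2.6, STAR 2.7.3 and DESeq2 1.30.0 are named, with the build mm10 and with no role or order. The deposited values are on the log2 scale: the table's name and its range, -1.97 to 21.88, show the regularized log transform, which the labels do not state. Such values hold no counts, so depth is unknown. The counting tool, strand and annotation are not given in the sources used here. The 142699 lines, repeated identically per gene, were merged to 55487 genes.

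limma 3.58.1 in R 4.3.3 (eBayes with a mean-variance trend, no covariates) was fitted to the 18766 genes whose mean over the 6 libraries was 3 or more, with Benjamini-Hochberg adjustment over all of them and a threshold of 0.05. Checked on simulated data for this comparison with 18766 genes, it called 28 of 58 genes changed by 0.4, 62 of 72 by 0.7 and 70 of 70 by 1.5 (log2), and 7 unchanged genes. Coordinates are from GENCODE M21, where identifiers of 8 of the 10 factors matched with their version and 2 without it. The factors, gene lists and tests were chosen with earlier results of these data known. Named from each list were up to 3 called genes with the largest changes and groups apart, and other list genes, named for their role, were chosen after their values were seen. Some list genes that the rule would name are not reported here. Figures were drawn with matplotlib 3.10.9. Alternatives changed the filter, the variance model, the scaling, the replicate block and the libraries.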

Additional observations from a re-analysis of the deposited data

How the results depend on the processing

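The number of the 10 factors called, 4 as reported, was 2 without a filter on the mean, and 5 with a mean of at least 5 and with the replicate block. It was 3 after quantile normalization and between 2 and 4 with 1 library left out. Over all tested genes, 2611 were called, and between 1119 and 3475 with 1 library left out. Of the 2611, 66.1% were higher in DM, and after quantile normalization 51.3% of 2654 were. That scaling took the median change of the 10 factors from 0.23 to 0.13 and that of genes with a mean of at least 10 from 0.11 to 0.01. Ier2 turned to -0.07 after quantile normalization and ranged from -0.05 (WT replicate 3 left out) to 0.12 with 1 library left out; the cause was not tested. Of the related lists not given this way above, the replicate block gave 7 MAP kinase genes higher and 1 lower (3 and 0 as reported), 1 heat shock gene higher and 1 lower (1 and 0) and 2 mitochondrial messenger RNAs higher (0), and no filter gave 0 EGR relatives (1). Mast cell and basophil markers (1 called) ranged from 0 to 3, fibroblast and endothelial markers (1) from 0 to 1, and megakaryocyte markers (2) from 1 to 2. Stem and progenitor markers (3) ranged from 1 to 3, and their 1 lower call, Flt3, was lost in 9 of 11 alternatives. Monocyte and macrophage markers called higher (9) ranged from 6, without WT replicate 1 or DM replicate 2, to 10 with the replicate block. Neutrophil markers called lower (12) ranged from 10, without WT replicate 2, DM replicate 2 or DM replicate 3, to 12. Samples with the same replicate number deviated from their group means with a correlation of 0.4908 for number 1, 0.1156 for number 2 and 0.0412 for number 3. WT replicate 3 correlated more with DM replicate 2 (0.1237). The numbers were not taken as pairs because the labels name no pairing. These correlations do not settle whether replicates were paired. With the replicate block 3742 genes were called, against 2611 as reported. Depth is unknown, and low genes are drawn toward their means.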
